A study of Mus musculus with 3 samples.

Results

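The genes described here are 36 genes of the G2 phase and mitosis, chosen by listing their mouse symbols and finding them in the deposited raw count table, with Aurora kinases and their partners left out. All 36 were found among the 19723 genes of the table, and all 36 had at least 1 count in every library. The study sequenced 3 pools of sorted cells, 1 library each, from BALB/c females that were 6 to 8 weeks old. The alisertib library came from myeloid-derived suppressor cells (MDSCs) pooled from 20 tumours of mice that received alisertib, an inhibitor of Aurora A kinase. The control library came from MDSCs pooled from 20 tumours of control mice. The bone marrow library came from neutrophils of 5 WT mice. Control mice are labelled as untreated in one place and as control treated in another, and the labels do not give the tumour line, the drug's dose or schedule, or the surface markers of the sort, whose purity is stated as greater than 90%. Because each group was a pool of animals in a single library, no spread between animals can be given and every comparison is between libraries. The comparisons ask how much mitotic transcript the tumour MDSCs held against normal marrow neutrophils, and whether that differed after alisertib.

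A cell enters mitosis when cyclin-dependent kinase 1, bound to a B-type cyclin, becomes active. Chromosomes are then packed by condensin, attached through kinetochores to spindle microtubules, held back by the spindle checkpoint until every kinetochore is attached, and released when the anaphase-promoting complex marks securin and cyclin B for destruction. Transcripts of this programme are made mainly in G2 and M and are scarce in cells that have left the cycle. In the neutrophil lineage of the marrow, promyelocytes and myelocytes divide, whereas band and segmented neutrophils do not. MDSCs are immature or activated myeloid cells that gather in tumours, and their granulocytic form resembles neutrophils.

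Many promoters of this programme are known to carry a cell cycle homology region (CHR, TTTGAA), which is bound by the MuvB core complex, together with CCAAT boxes, which are bound by NF-Y. Promoter windows of 300 bases (250 before and 50 after the start site) were taken from RefSeq on GRCm38.p6, the genome of a strain other than BALB/c, and 32 of the 36 members matched; Ccna2, Cdc25c, Kif20a and Smc4 had no entry. Stretches of 150 bases (120 before the start and 30 from it onwards) are printed for 6 members on which the results turn. Cdc20, Ccnb2 and Cdk1 are members lower in both tumour libraries than in marrow whose windows hold both motifs. Ccnb1 is a like member without a TTTGAA match. Cks2 and Cenpa are among the members that lay near the marrow level in the tumour libraries. Each sequence runs 5′ to 3′ on the gene's own strand, and capitals mark TTTGAA and CCAAT or their reverse complements (TTCAAA and ATTGG).
Cdc20, chr4:118437314-118437463, minus strand: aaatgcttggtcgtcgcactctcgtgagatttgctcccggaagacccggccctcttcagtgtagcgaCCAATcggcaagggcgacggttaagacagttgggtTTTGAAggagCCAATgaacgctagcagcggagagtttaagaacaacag
Ccnb2, chr9:70421525-70421674, minus strand: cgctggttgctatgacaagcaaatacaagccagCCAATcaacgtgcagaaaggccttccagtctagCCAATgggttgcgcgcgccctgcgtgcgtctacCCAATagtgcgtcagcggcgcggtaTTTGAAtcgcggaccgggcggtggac
Cdk1, chr10:69352883-69353032, minus strand: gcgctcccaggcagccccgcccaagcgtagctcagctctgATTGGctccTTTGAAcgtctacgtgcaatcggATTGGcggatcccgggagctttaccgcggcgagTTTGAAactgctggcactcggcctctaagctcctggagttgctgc
Ccnb1, chr13:100786457-100786606, minus strand: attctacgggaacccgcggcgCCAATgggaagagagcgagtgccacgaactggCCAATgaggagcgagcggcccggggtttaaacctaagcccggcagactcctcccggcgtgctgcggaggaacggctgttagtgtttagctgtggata
Cks2, chr13:51645112-51645261, plus strand: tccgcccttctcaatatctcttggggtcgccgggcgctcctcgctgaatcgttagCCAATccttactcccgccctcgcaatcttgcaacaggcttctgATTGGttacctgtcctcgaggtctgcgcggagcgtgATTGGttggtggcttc
Cenpa, chr5:30666766-30666915, plus strand: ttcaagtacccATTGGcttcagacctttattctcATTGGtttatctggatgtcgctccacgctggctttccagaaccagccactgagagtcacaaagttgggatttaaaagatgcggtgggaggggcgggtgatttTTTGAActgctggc

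Across the 32 members with a promoter entry, 24 held a CHR, 25 a CCAAT box and 21 both, on either strand. Here and below a CHR means an exact TTTGAA match, and other forms of the element were not searched. Counted by window, since Ect2 and Prc1 each have 2, the CHR was in 26 of 34 (76.5%), against 17.9% of all 32851 RefSeq windows and 12.5% of the 11878 windows of genes that passed the filter on low counts. A CCAAT box was in 79.4% of the members' windows and 37.4% of all windows, and at least 2 boxes in 52.9% and 11.7%. Both motifs together were in 67.65% of the members' windows and 6.95% of all. No CHR match overlapped a CCAAT match in these windows. In 22 of the 24 members with a CHR a match began no more than 40 bases before the start site, a limit chosen after the positions were seen. Matches to an E2F element, searched on both strands as TTTCCCGC, TTTCGCGC, TTTGCCGC and TTTGGCGC, were in 5.88% of the members' windows (Cdk1 and Ncapg) and 2.27% of all. The windows of Mad2l1, Nuf2, Nusap1 and Tacc3 held neither a CHR nor a CCAAT box, and those of Ccnb1, Bub1, Cenpe and Cks2 held CCAAT boxes without a CHR. A match describes letters in a window and shows no binding. RefSeq start sites are not always the GENCODE gene starts. The window of Kif2c, chr4:117178723-117179022, lies inside the GENCODE gene at chr4:117159639-117182639.

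**Figure D1:**
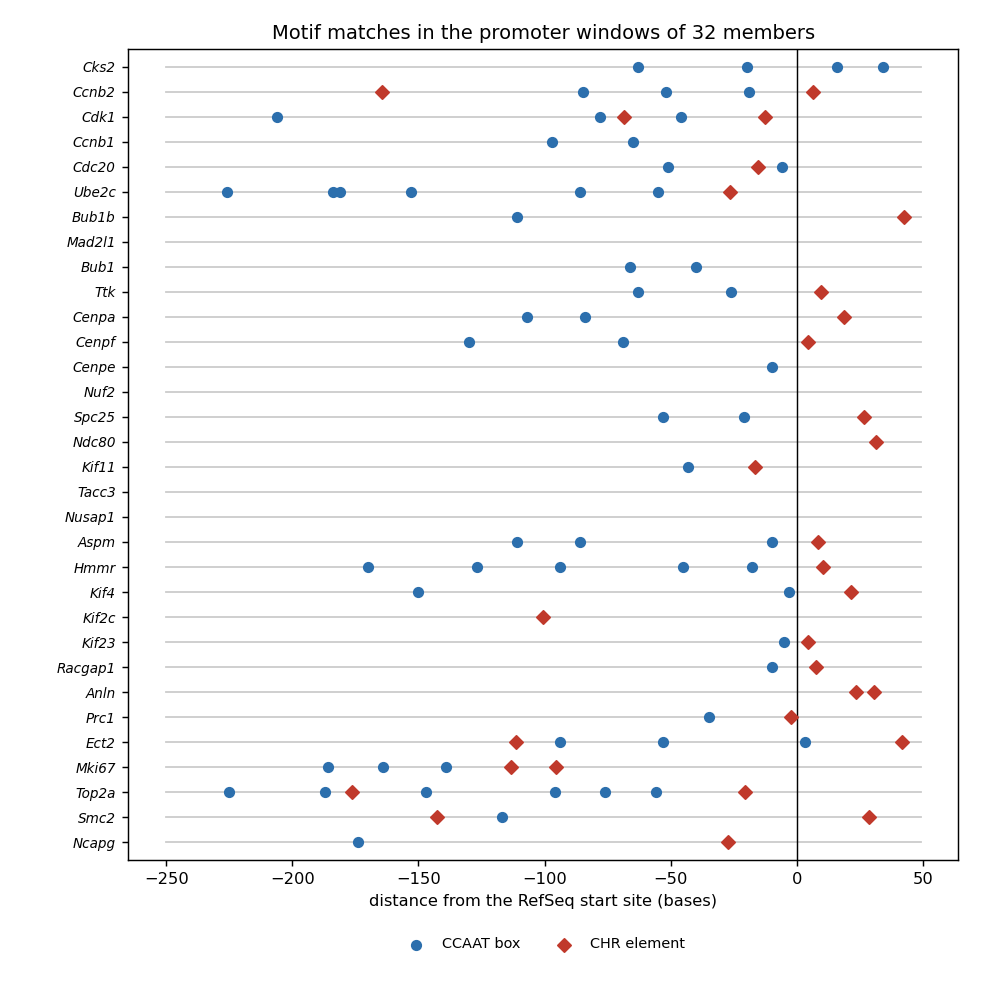
Positions of CHR (diamonds) and CCAAT (circles) matches in the RefSeq promoter windows of 32 members, with distance from the start site in bases on the x axis and 1 line per member (for Ect2 and Prc1, 1 of their 2 windows). CHR matches gather around the start site and CCAAT boxes lie mostly before it, and 4 members have neither.

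The libraries summed to 19373087 (alisertib), 21959748 (control) and 21987097 (bone marrow) counts. Levels are given as CPM, that is counts scaled to a common library size, after TMM scaling. A ratio between libraries was taken after adding 0.5 to each count, with an exact 95% interval (Clopper-Pearson, given the summed count) that covers counting error only. A gene is called higher or lower here when even the end of its interval that lies closest to 1 is 2-fold or more away. All 10 neutrophil markers listed were detected in the 3 libraries, and summed to 13636 CPM in alisertib, 32131 in control and 67400 in bone marrow. S100a8 (3341, 8725 and 15223 CPM) and S100a9 (7363, 17726 and 30389 CPM) held most of each sum. By gene, 6 of the 10 were called lower in control than in bone marrow and 8 in alisertib, where 22.9% and 22.3% of all genes were. Between the tumour libraries 6 were called lower in alisertib, where 1.18% of all genes were. In these comparisons 0 were called higher. Markers of other cells differed between the libraries too, and their sums are given with the comparisons.

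Against bone marrow, nearly the whole mitotic set was lower in the tumour MDSCs. The median member stood at 1.57 CPM in the alisertib library, 1.18 CPM in the control library and 26.4 CPM in the bone marrow library. In the control library 33 of the 36 members were called lower than in bone marrow and 0 higher, where 22.9% of the 13019 genes that passed the filter were called lower and 18.3% higher. The alisertib library gave 31 lower and 0 higher against the same bone marrow library, where 22.3% of all genes were called lower and 18.7% higher. The members' median log2 ratio was -4.38 for control and -3.57 for alisertib, beside -0.14 and -0.09 over all genes. These 2 comparisons share the bone marrow library. Of the 36 members, 10 passed the filter of 1 CPM in at least 1 library through bone marrow alone and so had to differ from it; of the other 26, 23 were called lower in the control library and 21 in the alisertib library. Fewer dividing cells and less of each transcript per cell cannot be told apart in such pools.

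**Figure D2:**
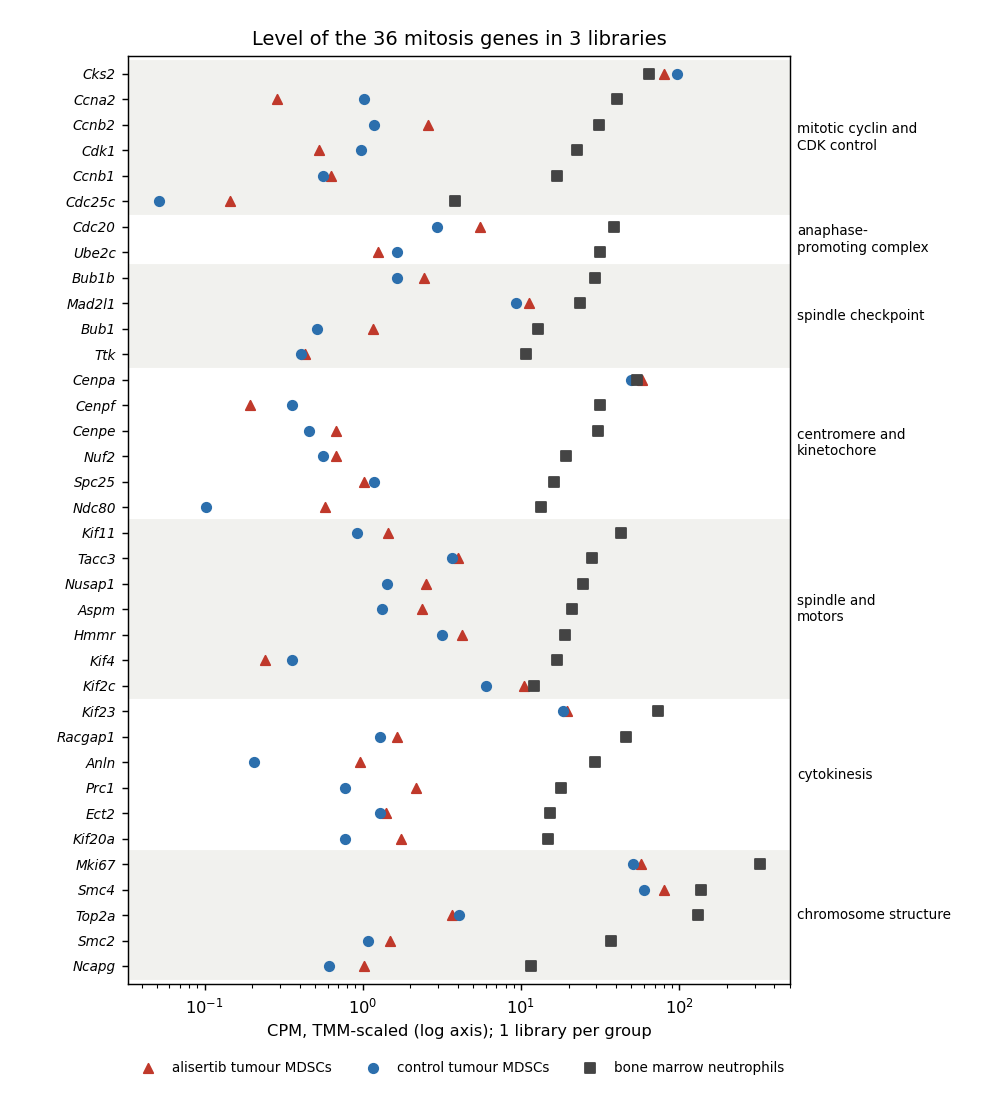
Level of each member in the 3 libraries, in TMM-scaled CPM on a log axis, 1 point per library, grouped by role. Bone marrow (squares) lies above both tumour libraries for 34 members, while Cks2 is above it in both tumour libraries and Cenpa in the alisertib library.

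Levels were very uneven within the set. Only 7 members, Mki67, Mad2l1, Cenpa, Kif23, Kif2c, Cks2 and Smc4, reached 5 CPM in both tumour libraries, a level chosen after the values were seen. They held 87.1% of the members' counts in the alisertib library, 89.4% in the control library and 46.2% in bone marrow. Since the 7 were picked by their tumour levels, a larger share in the tumour libraries was fixed by the choice, and these shares only describe how the counts were spread. The other 29 members summed to 976 counts in the alisertib library, 675 in the control library and 18612 in bone marrow. No member was at 0 in any library, and the fewest counts were 1 (Cdc25c, control), so the low members are measured with wide intervals in the tumour libraries and with 88 counts or more in bone marrow.

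Between the tumour libraries no member was called in either direction, where 1.8% of all genes were called higher and 1.18% lower in the alisertib library. Small differences leaned upwards. The ratio of alisertib to control was above 1 for 28 members and below 1 for 8, where 50.08% of all genes were above 1. The members' median log2 ratio was 0.38 beside 0.00 over all genes. The interval lay wholly above 1 for 13 members and wholly below 1 for 2 (Ccna2 and Cks2), against 26.0% and 29.0% of all genes. At a looser limit of 1.5-fold, 2 members passed upwards (Anln and Prc1) and 0 downwards, against 4.74% and 4.92% of all genes. The 29 sparse members together were 1.36-fold (1.23 to 1.503) higher in alisertib, and the 7 abundant ones 1.09-fold (1.05 to 1.13) higher.

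**Figure D3:**
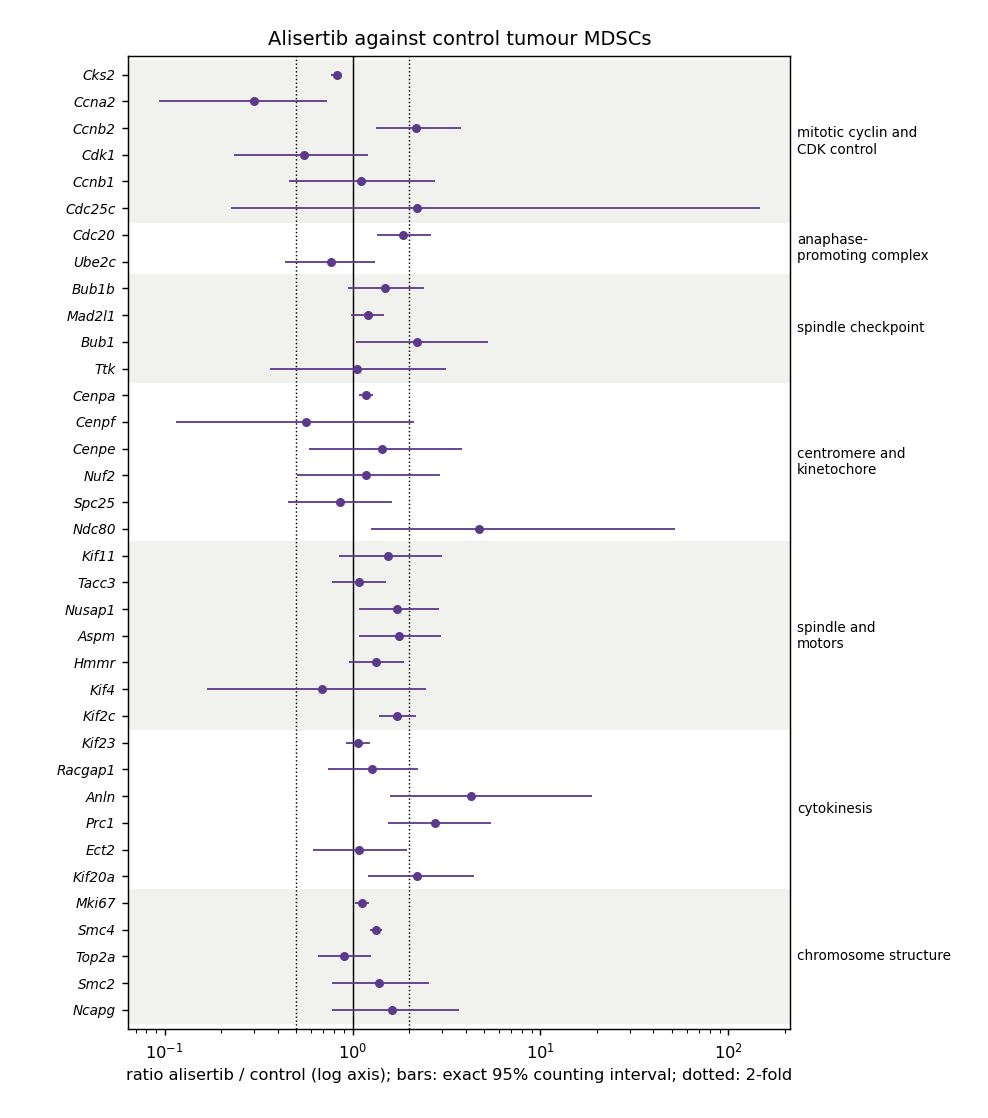
Ratio of the alisertib to the control library for each member on a log axis, with bars for the exact 95% counting interval and dotted lines at 2-fold. For 28 members the point is right of 1, and no bar lies wholly beyond a dotted line.

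Mitotic entry is driven by Cdk1 with its cyclins, by the phosphatase Cdc25c that removes inhibitory phosphates from Cdk1, and by Cks2, a small protein that docks the kinase on its substrates. Cdk1 had 11 counts in the alisertib library, 19 in the control library and 525 in bone marrow. Bone marrow was far above both tumour libraries, by 41.1-fold (23.8 to 86.6) over alisertib and 22.8-fold (14.8 to 39.2) over control. Ccnb1, a cyclin partner of Cdk1, had 13, 11 and 389 counts in the same order, and was 28.7-fold lower (16.6 to 60.5) in control than in bone marrow. Ccnb2, the other B-type cyclin listed, had 54, 23 and 720 counts. It was called lower than in bone marrow in both tumour libraries, and the alisertib library held 2.18 times the control level (1.33 to 3.77). Ccna2, cyclin A2, which acts in S phase and G2, went the other way between the tumour libraries, with 6, 20 and 929 counts. Its ratio of alisertib to control was 0.298 (0.0928 to 0.729), and it was 129-fold (63.8 to 381) below bone marrow in the alisertib library and 38.4-fold (25.3 to 64.7) in the control library. Exons of Ccna2 and Exosc9 overlap, and Exosc9, on the opposite strand, had 54, 40 and 78 counts. Cdc25c was near the limit of detection in tumours, with 3, 1 and 88 counts, and its ratio of alisertib to control was 2.20 (0.227 to 148).

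Cks2 was the exception in this group. It had 1671 counts in the alisertib library, 1904 in the control library and 1496 in bone marrow, or 80.5, 97.5 and 64.9 CPM. It was thus at 1.503 times the bone marrow level (1.404 to 1.609) in control MDSCs and not called. Between tumour libraries it was 1.21-fold lower (1.13 to 1.29) in alisertib. The gene lies at chr13:51645232-51650660 (GRCm38, plus strand). Its promoter stretch printed above has CCAAT boxes and no TTTGAA match. The median log2 ratio of the 6 entry genes to bone marrow was -4.77 in control and -4.60 in alisertib, and between the tumour libraries it was -0.07, the lowest of the 7 role groups.

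Cdc20 activates the anaphase-promoting complex, and Ube2c is the ubiquitin-conjugating enzyme that works with it. Cdc20 had 115 counts in the alisertib library, 58 in the control library and 893 in bone marrow. Control MDSCs were 12.9-fold (9.99 to 17.3) and alisertib MDSCs 6.96-fold (5.75 to 8.56) below bone marrow, and alisertib was 1.86-fold (1.35 to 2.61) above control. Ube2c had 26, 32 and 726 counts. Unlike Cdc20 it was not above control in the alisertib library, with a ratio of 0.767 (0.438 to 1.32), and both tumour libraries were called below bone marrow.

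The spindle checkpoint genes encode the kinases Bub1 and Ttk, the kinase-like BubR1 (Bub1b) and Mad2 (Mad2l1), which together restrain Cdc20 until kinetochores are attached. Bub1 had 24 counts in the alisertib library, 10 in the control library and 297 in bone marrow, Bub1b had 51, 32 and 682, and Ttk had 9, 8 and 247. All 3 were called lower than bone marrow in both tumour libraries, by 24.0-fold (13.5 to 53.0), 17.8-fold (12.7 to 26.6) and 24.7-fold (13.1 to 61.2) in control. Mad2l1 differed from these in level, with 234, 183 and 544 counts. It was 2.51-fold lower (2.13 to 2.99) than bone marrow in control, which was called, and 2.09-fold lower (1.79 to 2.45) in alisertib, which was not. Of the 4 genes only Bub1 had an alisertib to control interval above 1, at 2.20 (1.04 to 5.29).

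Cenpa is the histone H3 variant that marks centromeres, Cenpe a kinetochore motor, Cenpf a large kinetochore protein, and Ndc80, Nuf2 and Spc25 are subunits of the complex that grips microtubules. Cenpa had 1212 counts in the alisertib library, 969 in the control library and 1259 in bone marrow. The 3 libraries were close, at 58.4, 49.6 and 54.6 CPM, although by count the alisertib library was 1.18-fold (1.08 to 1.28) above control. Cenpa in control stood at 0.909 of the bone marrow level, a log2 ratio of -0.14 that became 0.15 with upper-quartile scaling, so its direction is not settled. The gene lies at chr5:30666777-30674830 on the plus strand, and its printed promoter stretch holds a CHR and 2 CCAAT boxes. That stretch, chr5:30666766-30666915, lies mostly inside the GENCODE gene, because the RefSeq start is further downstream.

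The other centromere and kinetochore genes were all called lower than bone marrow in both tumour libraries. Cenpf had 4 counts in the alisertib library, 7 in the control library and 725 in bone marrow, the largest distance of any member in alisertib at 145-fold (63.4 to 600). Cenpe had 14, 9 and 712 counts and was 63.5-fold lower (35.1 to 147) in control. Ndc80 had 12, 2 and 311 counts, a ratio of alisertib to control of 4.71 (1.26 to 51.9) that rests on 2 control counts. Its partners in the same complex showed no such distance between the tumour libraries. Nuf2 had 14, 11 and 443 counts and an alisertib to control ratio of 1.19 (0.505 to 2.92). Spc25 had 21, 23 and 371 counts, and its log2 ratio of -0.22 between alisertib and control became 0.05 when libraries were scaled by total counts.

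The spindle group holds Kif11, the motor that pushes spindle poles apart, Kif2c, which disassembles microtubule ends, Kif4, a chromosome-bound motor, and the microtubule or pole proteins Hmmr, Nusap1, Aspm and Tacc3. Kif11 had 30 counts in the alisertib library, 18 in the control library and 985 in bone marrow, and was 45.1-fold lower (29.2 to 78.5) in control than in bone marrow. Kif4 had 5, 7 and 388 counts, and was 43.9-fold lower (22.6 to 118). Of its exon bases 15.1% overlap Pdzd11 on the opposite strand, which had 84, 149 and 216 counts. Kif2c stood apart from these motors, with 217, 118 and 279 counts. It was 1.997-fold below bone marrow (1.609 to 2.504) in control and was called in neither comparison. In the alisertib library its log2 ratio to bone marrow was -0.21, which became 0.07 with upper-quartile scaling. Between tumour libraries Kif2c was 1.73-fold higher in alisertib (1.38 to 2.18), the best counted of the ratios above 1.5 among the members.

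Tacc3, which binds spindle microtubules and is known as a substrate of Aurora A, had 83 counts in the alisertib library, 72 in the control library and 648 in bone marrow. Its ratio of alisertib to control was 1.08 (0.782 to 1.51). Of its exon bases 8.14% overlap Tmem129 on the opposite strand, which had 68, 23 and 119 counts. Tmem129 was itself 2.74-fold (1.71 to 4.68) higher in alisertib than in control. Hmmr had 88, 62 and 439 counts, and was 5.95-fold lower (4.59 to 7.95) than bone marrow in control, among the smaller distances of the sparse members. Nusap1 had 52, 28 and 569 counts, and Aspm had 49, 26 and 483. Both were higher in the alisertib than in the control library by count, Nusap1 1.73-fold (1.08 to 2.87) and Aspm 1.76-fold (1.08 to 2.97), and both were called below bone marrow in both tumour libraries. The group's median log2 ratio between alisertib and control was 0.63.

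Cytokinesis genes showed the highest median of the 7 groups between the tumour libraries, 0.75 on the log2 scale, with 6 of 6 ratios above 1. All 4 spindle checkpoint ratios were above 1 too, beside 50.08% over all genes. Anln encodes anillin, a scaffold of the contractile ring, and had 20 counts in the alisertib library, 4 in the control library and 676 in bone marrow. Alisertib was 4.29-fold above control (1.58 to 18.9), while both stayed far below bone marrow, by 29.7-fold (19.5 to 50.1) in alisertib and 127-fold (55.6 to 527) in control. Prc1, which bundles the microtubules of the spindle midzone, had 45, 15 and 416 counts. Its ratio between the tumour libraries was 2.76 (1.55 to 5.45). The value carries an uncertainty of place, because 11.1% of the exon bases of Prc1 overlap Rccd1 on the opposite strand, which had 45, 13 and 13 counts and was itself 3.17-fold (1.73 to 6.58) higher in alisertib than in control. Whether counting used strand is not given in the sources used here. Prc1 lies at chr7:80294450-80316259 and Anln at chr9:22332012-22389188, where no other gene's exons overlap it.

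Kif20a, a midzone motor, had 36 counts in the alisertib library, 15 in the control library and 344 in bone marrow, with a ratio of alisertib to control of 2.22 (1.21 to 4.44). Its exons overlap those of Cdc23 on the opposite strand over 29.3% of their length, and Cdc23 had 54, 31 and 236 counts. Cdc23 was itself 1.63-fold (1.035 to 2.64) higher in alisertib than in control. Kif23 and Racgap1 form the centralspindlin complex, and Ect2 is the exchange factor that it recruits to activate RhoA. Racgap1 had 34, 25 and 1067 counts, and Ect2 had 29, 25 and 353. Kif23 was far better represented in tumours than its partner, with 409, 359 and 1692 counts. It was 3.99-fold lower (3.56 to 4.49) than bone marrow in control, where Racgap1 was 35.5-fold lower (24.4 to 56.1). None of these 3 had an interval between the tumour libraries that excluded 1, at 1.07 (0.928 to 1.24) for Kif23, 1.27 (0.741 to 2.24) for Racgap1 and 1.09 (0.617 to 1.94) for Ect2.

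Among genes of chromosome structure, Mki67 encodes Ki-67, the coat protein of mitotic chromosomes used as a marker of dividing cells, and Top2a the topoisomerase that untangles DNA. Mki67 had 1198 counts in the alisertib library, 999 in the control library and 7525 in bone marrow. It was 6.38-fold lower (5.97 to 6.82) than bone marrow in control and 5.65-fold lower (5.32 to 6.01) in alisertib, and 1.13-fold higher (1.04 to 1.23) in alisertib than in control. Top2a had 76, 79 and 3060 counts. It was further below bone marrow than Mki67, by 32.6-fold (26.2 to 41.5) in control, and its log2 ratio of -0.14 between alisertib and control became 0.13 with scaling by total counts. Smc2, Smc4 and Ncapg are subunits of condensin. Smc4 had 1675, 1179 and 3177 counts, and was called lower than bone marrow in control, by 2.28-fold (2.13 to 2.44), but not in alisertib, at 1.71-fold (1.61 to 1.81). Its alisertib to control ratio was 1.34 (1.24 to 1.44). Smc2, its partner in the same ring, had 31, 21 and 857 counts and was 33.8-fold lower (22.5 to 56.1) in control than in bone marrow. Ncapg had 21, 12 and 269 counts and was 18.3-fold lower (10.7 to 37.2). Of its exon bases 13.4% overlap Lcorl on the opposite strand, which had 433, 532 and 480 counts.

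**Figure D4:**
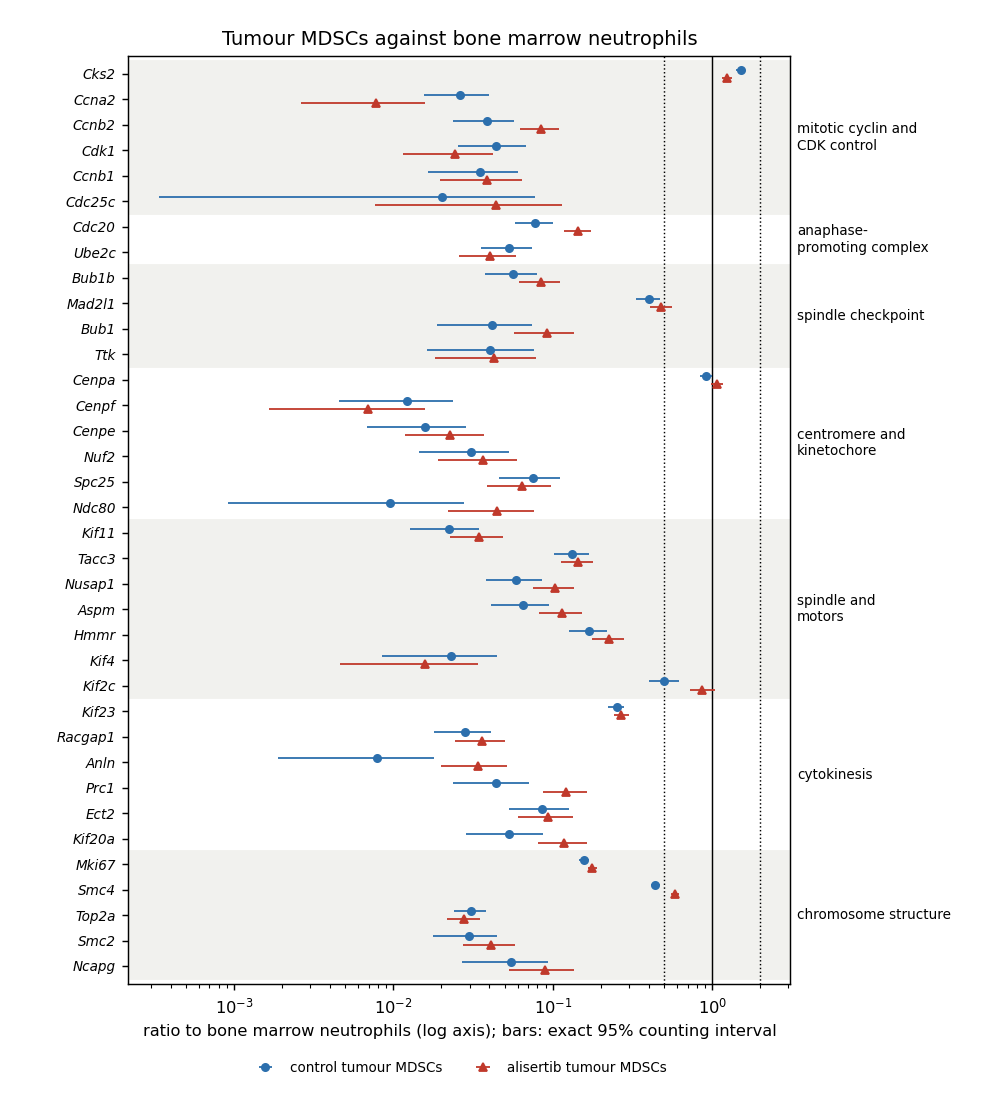
Ratio of each tumour library to bone marrow for the 36 members on a log axis, control as circles and alisertib as triangles, with exact 95% counting intervals and dotted lines at 2-fold. Cks2, Cenpa, Kif2c, Smc4 and Mad2l1 lie close to the dotted line or to 1, and 30 members lie at least 4-fold below 1 in both tumour libraries.

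Levels between genes can be set side by side only per length, for which the deposited FPKM values were used. On that scale Cks2 ranked highest in every library, at 113 FPKM in alisertib, 137 in control and 92.7 in bone marrow. In both tumour libraries it was followed by Smc4 (15.0 and 11.3 FPKM), Cenpa (9.68 and 8.25), Kif23 (5.59 and 5.23) and Mki67 (5.56 and 4.94). Bone marrow had another order, with Mki67 (32.02 FPKM) and Smc4 (26.1) after Cks2, then Kif23 (21.2), Cdc20 (20.5) and Ccnb2 (20.0), and Cenpa only at rank 10 with 9.21. Below 1 FPKM lay 26 members in the alisertib library and 27 in the control library, and 0 in bone marrow. By the deposited values Cenpf was lowest in both tumour libraries, at 0.0121 and 0.0226 FPKM.

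Some partner proteins had transcripts at very unequal level in the tumour libraries, and pairs are given here as a description. The FPKM of Smc4 was 56.8 times that of Smc2 (39.9 to 83.9, counting error only) in the alisertib library and 59.0 times (38.4 to 95.7) in the control library, against 3.90 times (3.61 to 4.21) in bone marrow. Mki67 stood at 14.1 times Top2a (11.18 to 18.02) in alisertib, 11.3 times (8.99 to 14.4) in control and 2.20 times (2.11 to 2.30) in bone marrow. Cks2 over Cdk1 was widest, at 756 (422 to 1518), 499 (319 to 831) and 14.2 (12.8 to 15.7). Each pair sets a member that is abundant in tumours over a sparse one and was chosen after the levels were seen, so a wider ratio in the tumour libraries was fixed by the choice. Other partners were close to each other, such as Cdk1 (0.149, 0.275 and 6.53 FPKM in alisertib, control and bone marrow) and Ccnb1 (0.144, 0.130 and 3.96 FPKM). The gene lengths that the FPKM values imply were within 1% of the GENCODE exon length for 29 members and differed for 7, Cdk1 and Kif23 among them. For Kif23 the implied length was 3423 bases against 7901. On the longer length its level would be 2.42, 2.27 and 9.18 FPKM, which moves it to rank 6, 5 and 10 among the members. For Cdk1 the lengths were 3445 and 4934 bases, and on the longer one its level would be 0.104, 0.192 and 4.56 FPKM. Cks2 over Cdk1 would then be wider in each library. On the exon length Cdc25c, at 0.0101 FPKM, and not Cenpf would be lowest in the control library.

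The upward lean between the tumour libraries has to be read against genes of like level. Among the 4590 genes with a mean of 0.5 to 5 CPM over the tumour libraries the median log2 ratio of alisertib to control was 0.21. Of these genes 60.85% had a ratio above 1. The 24 members in that range had a median of 0.49, with 19 above 1. Above 50 CPM all 3007 genes had a median of -0.19 and the 4 members there, Mki67, Cenpa, Cks2 and Smc4, had 0.20. Between 5 and 50 CPM the medians were 0.02 for 4818 genes and 0.27 for 3 members. Under 0.5 CPM they were 0.11 for 604 genes and 0.07 for 5 members. Low genes in general thus leaned towards alisertib, and the members' median lay further that way except under 0.5 CPM.

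Genes of the same programme that are not members had medians nearer to 0. Of 104 other mitosis genes listed, 103 were in the table. Against bone marrow 70 were called lower in control and 1 higher, where 22.9% and 18.3% of all genes were, with a median log2 ratio of -2.30. In alisertib 67 were lower and 2 higher, where 22.3% and 18.7% of all genes were, with a median of -1.99. Genes of this list, as of the G1/S list below, that passed the filter through bone marrow alone had to be lower in the tumour libraries. Their number was not counted. Ccnf, cyclin F, which is part of a ubiquitin ligase, was the 1 gene called higher in control, at 207.6 CPM against 15.7 CPM in bone marrow, or 13.3-fold (11.9 to 14.8), and it was 18.3-fold higher (16.5 to 20.5) in alisertib. Between the tumour libraries 1 of 103 was called, where 1.8% of all genes were called higher and 1.18% lower. That gene was Cdca5 (sororin, which protects sister chromatid cohesion), higher in alisertib with 34 counts against 4, or 7.22-fold (2.85 to 31.0). The list's median log2 ratio was 0.23.

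Against bone marrow, genes of earlier cycle phases had medians nearer to 0 again, but between the tumour libraries their median was not nearer. Of 44 listed G1/S and replication genes 42 passed the filter, and in control 22 were called lower than bone marrow and 6 higher, where 22.9% and 18.3% of all genes were, with a median log2 ratio of -1.54. In alisertib 19 were lower and 6 higher, where 22.3% and 18.7% of all genes were, with a median of -0.83. Between the tumour libraries 0 were called, where 1.8% of all genes were called higher and 1.18% lower, and the list's median was 0.28. E2f2, a transcription factor of S phase entry, was 15.1-fold lower (13.4 to 17.1) in control than in bone marrow, and Rrm2, a subunit of ribonucleotide reductase, 11.2-fold lower (9.06 to 14.2). Cdt1, which licenses replication origins, was higher, 4.06-fold (3.60 to 4.60), and Pcna, the sliding clamp, 2.55-fold (2.41 to 2.70).

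Of 11 quiescence and arrest genes that passed the filter, 2 were called higher in control than in bone marrow and 4 lower. The same numbers held for alisertib against bone marrow. Over all genes the share called higher was 18.3% in control and 18.7% in alisertib, and 2 of 11 is near it. The share called lower over all genes was 22.9% and 22.3%. Cdkn1a, which encodes the kinase inhibitor p21, had 14136 counts in the alisertib library, 14627 in the control library and 311 in bone marrow. It was 55.5-fold higher (49.6 to 62.4) in control and 50.4-fold higher (45.1 to 56.7) in alisertib than in bone marrow. Btg1, an antiproliferative gene, was 3.45-fold higher (3.41 to 3.49) in control. Cdkn2d, Rbl2, Rbl1 and Cdkn2c, which are brakes on the cycle as well, were lower, by 4.70-fold (4.38 to 5.06), 5.52-fold (4.79 to 6.42), 4.10-fold (3.39 to 5.02) and 4.12-fold (3.37 to 5.09).

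Marker lists differed from bone marrow in both directions, and those of neutrophil maturation, progenitors, erythroid cells and B cells were lower in the tumour libraries, as the members were. Over all genes, 22.9% were called lower and 18.3% higher in control than in bone marrow. For alisertib the shares were 22.3% and 18.7%. Primary granule genes of immature neutrophils (Mpo, Elane, Prtn3, Ctsg, Ms4a3, Prss57 and Cst7) summed to 8.33 CPM in alisertib, 6.96 in control and 142.7 in bone marrow. In bone marrow all 7 were called higher than in control, with Ctsg at 0 in alisertib. In every marker list, a gene that passed the filter through bone marrow alone had to be higher there. Elane, Ctsg, Ms4a3 and Cst7 were such genes. Secondary granule genes summed to 2941, 6802 and 69839 CPM, with 10 of 10 called lower in control than in bone marrow. Progenitor markers summed to 54.3, 59.4 and 221 CPM (7 of the 10 that passed the filter lower in control; Meis1 and Mycn at 0 in control, Mycn in alisertib, Hoxa9 in bone marrow). Erythroid markers, of which 14 were in the table, summed to 55.6, 77.2 and 142.6 CPM. Tfrc alone held 46.8, 68.0 and 36.6 CPM of these, most of the tumour sums. Of the 10 markers that passed the filter, 9 were called lower than bone marrow in each tumour library. Epor was at 0 in both tumour libraries, Rhag in alisertib and Ermap in control. B cell markers summed to 61.4, 9.68 and 287.5 CPM, with 18 of 18 lower in control than in bone marrow. Vpreb1, Igll1 and Dntt, genes of dividing B cell precursors, were at 0 in both tumour libraries. Mzb1, Rag1 and Vpreb3 were at 0 in control, and all 19 listed were present in bone marrow. Vpreb3, Igll1, Dntt, Rag1, Jchain and Mzb1 passed the filter through bone marrow alone. Monocyte and macrophage markers went the other way, at 1096, 1023 and 602 CPM, with 8 of 15 called higher in control than in bone marrow and 3 lower. The 3 lower are near the share over all genes. Epithelial and mammary tumour markers summed to 109, 132 and 83.4 CPM, with Epcam, Elf3 and Spint1 at 0 in bone marrow. Their median levels were further apart, at 2.505, 2.508 and 0.217 CPM. Of the 7 that passed the filter, 4 were called higher in control than in bone marrow and 3 in alisertib, with 0 lower in either. Fibroblast and endothelial markers summed to 55.0, 52.0 and 12.2 CPM, with Tek at 0 in control and Kdr in bone marrow. Of the 3 that passed the filter, 2 were called higher than bone marrow in each tumour library and 0 lower. The part of these cells in the members' distance from bone marrow was not tested.

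Of the marker lists, those of lymphocytes had the largest median ratios between the tumour libraries. Over all genes, 1.8% were called higher and 1.18% lower in alisertib than in control. T and NK cell markers summed to 124 CPM in alisertib, 36.8 in control and 166 in bone marrow, with 11 of the 18 that passed the filter called higher in alisertib than in control and 0 lower; Klrb1c was at 0 in both tumour libraries, Ncr1 in alisertib and Trac in bone marrow. The bone marrow sum is mostly Cd3d (136.2 CPM). By gene, 13 of the 18 were called higher in alisertib than in bone marrow and 2 lower, where 18.7% and 22.3% of all genes were. In control 5 were higher and 2 lower, where 18.3% and 22.9% of all genes were. Of 18 B cell markers 9 were called higher in alisertib than in control and 0 lower. Secondary granule genes were lower in alisertib, with 8 of 10 called. Whether lymphocytes, which can divide, account for any of the small upward differences in mitosis genes was not tested.

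Members with and without a CHR, that is a TTTGAA match, can be set side by side. The 24 members with a CHR in their window had a median log2 ratio of control to bone marrow of -4.38 (range -6.99 to -0.14), and the 8 members without one had -4.33 (range -5.99 to 0.59). For alisertib against bone marrow the medians were -3.77 and -3.37, and between alisertib and control they were 0.38 and 0.26. Of the members not called against bone marrow in either or both tumour libraries, Cenpa and Kif2c had a CHR, and Cks2 and Mad2l1 had none. Smc4, also among them, had no promoter entry. These medians are descriptions, and nothing about the factors that bind these motifs follows from them.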

How the data were processed

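The deposited tables give raw read counts per gene and FPKM values (read fragments scaled to gene length and depth), which the authors made; per the submitters' processing notes, CASAVA 1.8, STAR 2.5.1b and the builds mm9 and mm10 were involved, with no role given. Per the labels' protocols, RNA was extracted with Trizol and libraries made with the NEBNext Ultra kit. What counted the reads, with which annotation and strand setting, is not given in the sources used here, so reads of overlapping genes cannot be told apart. Exons of 11 members overlap another gene, namely Ccna2, Cdc20, Cdc25c, Kif20a, Kif4, Ncapg, Nusap1, Prc1, Tacc3, Top2a and Ube2c. Groups came from the sample labels, and columns were matched by name. Symbols and positions are from GENCODE M21 (GRCm38), and 75 of 19723 genes had no symbol.

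Counts were compared on TMM-scaled library sizes (edgeR 4.0.16, R 4.3.3; factors 1.07, 0.89 and 1.05 for alisertib, control and bone marrow), over the 13019 genes at 1 CPM or more in at least 1 library. The log2 ratio used counts plus 0.5, with the exact 95% interval of scipy 1.17.1. With 1 library per group there was no test and no p-value. Intervals cover counting error only, and even there reads that carry no molecular identifier are not independent. FPKM served for levels between genes. The procedure was run on simulated counts drawn with counting error only, so that run says nothing about spread between animals. Alternatives were total counts, DESeq2 1.42.0 size factors, upper-quartile scaling, other filters and added counts, FPKM with a pseudocount, and other call limits. All 36 members are named; from the lists of other mitosis, G1/S and arrest genes, the rule took up to 6 per list and comparison, called genes before the most abundant, and some of these are given. The members, lists, markers and rules were chosen with earlier results of these data known. Of the listed markers, 1 is not reported here, and its list is given without it.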

Additional observations from a re-analysis of the deposited data

How the results depend on the processing

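No paired analysis was possible because each group was 1 library, and for the same reason no library could be left out. Called members were 0 between the tumour libraries under the other scalings, filters, added counts and the 99% interval, but 2 with the 1.5-fold bound and 3 with FPKM plus 0.1 (Ccnb2 and Ndc80 higher, Ccna2 lower), where no interval was applied. Against bone marrow the count stayed between 31 and 34 for control and between 30 and 33 for alisertib over the other settings, and 0 members were called higher. Among the 25 members whose exons overlap no other gene, an alternative chosen after seeing the data, 22 were called in control and 20 in alisertib, because fewer genes were counted. The median log2 ratio kept its sign under every alternative run: 0.08 (FPKM plus 1) to 0.65 (total counts) between the tumour libraries, and below 0 against bone marrow, where FPKM plus 1 gave -2.07 for control and -2.01 for alisertib, since a pseudocount of 1 compresses genes under 1 FPKM. Scaling by total counts moved the median of all genes between the tumour libraries from 0.00 to 0.27, and the members' distance from it was 0.38 in both cases. Upper-quartile scaling ended the call of Mad2l1 and Smc4 in control against bone marrow (log2 ratios -1.04 and -0.91), and FPKM plus 1 that of Mad2l1 (-0.86). Depth limits the sparse members: Bub1, with 24 against 10 counts, had a ratio interval from 1.04 to 5.29, and 11 of the 36 members were under 1 CPM in alisertib and 15 in control.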
